A study of Mus musculus with 13 samples.

Results

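The 7 activity-dependent immediate early genes described here are Fos, Fosb, Junb, Egr1, Npas4, Arc and Nr4a1, taken by gene symbol from the 48709 gene rows of the count tables. All 7 had a row. They were followed in 13 RNA-seq libraries of spinal motoneurons, each from about 500 cells laser-captured from the lumbar cord of 1 mouse. Every mouse carried the SOD1-G93A transgene, a mutant human superoxide dismutase that causes a motoneuron disease in mice, so no group was healthy. The AAV-miR SOD1 group (n = 4) received, at postnatal day 2 and into the cerebral ventricles, an adeno-associated virus that makes an artificial microRNA against human SOD1 in astrocytes. Control virus was injected in the same way in the mice of AAV-miR ctrl (n = 5), and the non-injected mice (n = 4) were littermates without virus. All mice were killed at 65 days with pentobarbital. The question the design puts is how motoneurons differ when the mutant protein is lowered in neighbouring astrocytes. Libraries are named by the replicate number in their titles, which ran from 1 to 4 in AAV-miR SOD1 and up to 6 in the control groups.

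Immediate early genes are transcribed within minutes of a stimulus, without the need for new protein. In neurons the usual trigger is synaptic input, through calcium entry, MAP kinases, and the transcription factors CREB and SRF that are already bound at the promoters. Most of the products are themselves transcription factors. Fos and Fosb pair with Junb and other Jun proteins to form AP-1, Egr1 is a zinc finger factor, Nr4a1 (Nur77) is an orphan nuclear receptor, and Npas4 is a neuron-restricted factor that answers to calcium. Arc differs from the others in acting at the synapse, where its protein drives removal of AMPA receptors. Several of these genes also answer to stress, growth factors and inflammation, in glia and blood cells as well as in neurons.

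Promoter windows show what these genes share in sequence. RefSeq windows on GRCm38.p6, from 250 bases before to 50 bases after the annotated start, were used for 5 of the 7 members, namely Fos, Fosb, Junb, Npas4 and Nr4a1. No window was used for Egr1, and the source had none for Arc, so these 2 genes were not searched. The 5-base core TGACG of the cAMP response element, the site CREB binds, was searched on both strands and so also as CGTCA. It occurred in all 5 windows, against 20.8% of the 32851 windows of 300 bases in the table. The windows of Fos, Junb and Nr4a1 are shown because these genes gave most of the reads, and that of Npas4 because it has the same core and almost no reads. Each is printed 5′ to 3′ on the gene's own strand, with TGACG or CGTCA in capitals.
Fos: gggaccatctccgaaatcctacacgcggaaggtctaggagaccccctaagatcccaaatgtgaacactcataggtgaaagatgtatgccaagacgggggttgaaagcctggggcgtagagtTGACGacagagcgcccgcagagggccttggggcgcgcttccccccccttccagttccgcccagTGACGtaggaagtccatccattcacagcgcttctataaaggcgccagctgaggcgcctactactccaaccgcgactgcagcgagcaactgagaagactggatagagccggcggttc
Junb: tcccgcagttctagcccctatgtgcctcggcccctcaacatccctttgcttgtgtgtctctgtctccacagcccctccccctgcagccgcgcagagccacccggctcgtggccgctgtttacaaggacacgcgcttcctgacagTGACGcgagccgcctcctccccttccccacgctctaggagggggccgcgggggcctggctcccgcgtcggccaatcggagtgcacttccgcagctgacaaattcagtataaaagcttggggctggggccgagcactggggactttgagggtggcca
Nr4a1: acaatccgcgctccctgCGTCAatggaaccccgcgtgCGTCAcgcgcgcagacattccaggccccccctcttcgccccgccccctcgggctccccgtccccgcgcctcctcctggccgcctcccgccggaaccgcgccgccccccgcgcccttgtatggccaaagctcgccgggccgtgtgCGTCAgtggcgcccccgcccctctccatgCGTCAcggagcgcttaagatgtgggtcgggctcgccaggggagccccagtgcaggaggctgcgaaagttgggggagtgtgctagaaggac
Npas4: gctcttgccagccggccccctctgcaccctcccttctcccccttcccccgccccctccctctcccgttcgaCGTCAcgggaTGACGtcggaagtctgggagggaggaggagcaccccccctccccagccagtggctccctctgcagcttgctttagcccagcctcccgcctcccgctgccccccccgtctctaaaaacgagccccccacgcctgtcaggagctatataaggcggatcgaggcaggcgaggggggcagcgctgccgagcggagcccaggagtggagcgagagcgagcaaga
The windows lie at chr12:85473640-85473939 on the plus strand for Fos, chr8:84978699-84978998 on the minus strand for Junb, chr15:101266596-101266895 on the plus strand for Nr4a1 and chr19:4989922-4990221 on the minus strand for Npas4. The Fos cores begin 129 and 66 bases before the start, and the single Junb core 106 bases before it. Nr4a1 has 4 cores, at 233, 213, 69 and 40 bases before the start, the most among the 5. Npas4 has 2, at 179 and 169 bases, on opposite strands and next to each other. The window of Fosb (chr7:19309996-19310295, minus strand) has 1 core at 60 bases.

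Longer motifs were rarer. The full palindrome TGACGTCA, found in 1.8% of all windows, the AP-1 site TGACTCA, found in 5.2%, and the CArG box that SRF binds, found in 1.6%, had no match in the 5 windows, which says only that these letters are not in these 300 bases. TATAAA occurred in 13.6% of all windows and in those of Fos and Junb. These matches describe letters and were not tested as sites of binding.

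Levels between genes were compared as CPM (counts scaled to 1000000 counts on genes in each library) per kilobase of annotated exon. Junb came first, with a median over the 13 libraries of 18.5 CPM per kb, then Fos with 13.9, Nr4a1 with 9.92, Egr1 with 3.08 and Arc with 1.07. By its mean on this scale Junb ranked 2700 of 48349 genes and Fos 2933. Fosb, at a median of 0.0849 CPM per kb, ranked 20957, and Npas4, with a median of 0, ranked 27585. Junb was the highest member in 9 libraries, and Fos and Nr4a1 in 2 each. Neighbours in this order overlapped in their ranges over the libraries, with the exception of Arc and Fosb. Within single libraries Junb lay above Fos in 10 of 13, Fos above Nr4a1 in 10, Nr4a1 above Egr1 in 9, and Egr1 above Arc and Arc above Fosb in all 13. Among the 5 members with counts in every library the spread was narrowest for Junb, whose highest library was 3.20 times its lowest. It was 6.21 times for Fos, 8.34 times for Arc, 10.3 times for Nr4a1 and 17.1 times for Egr1.

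**Figure D1:**
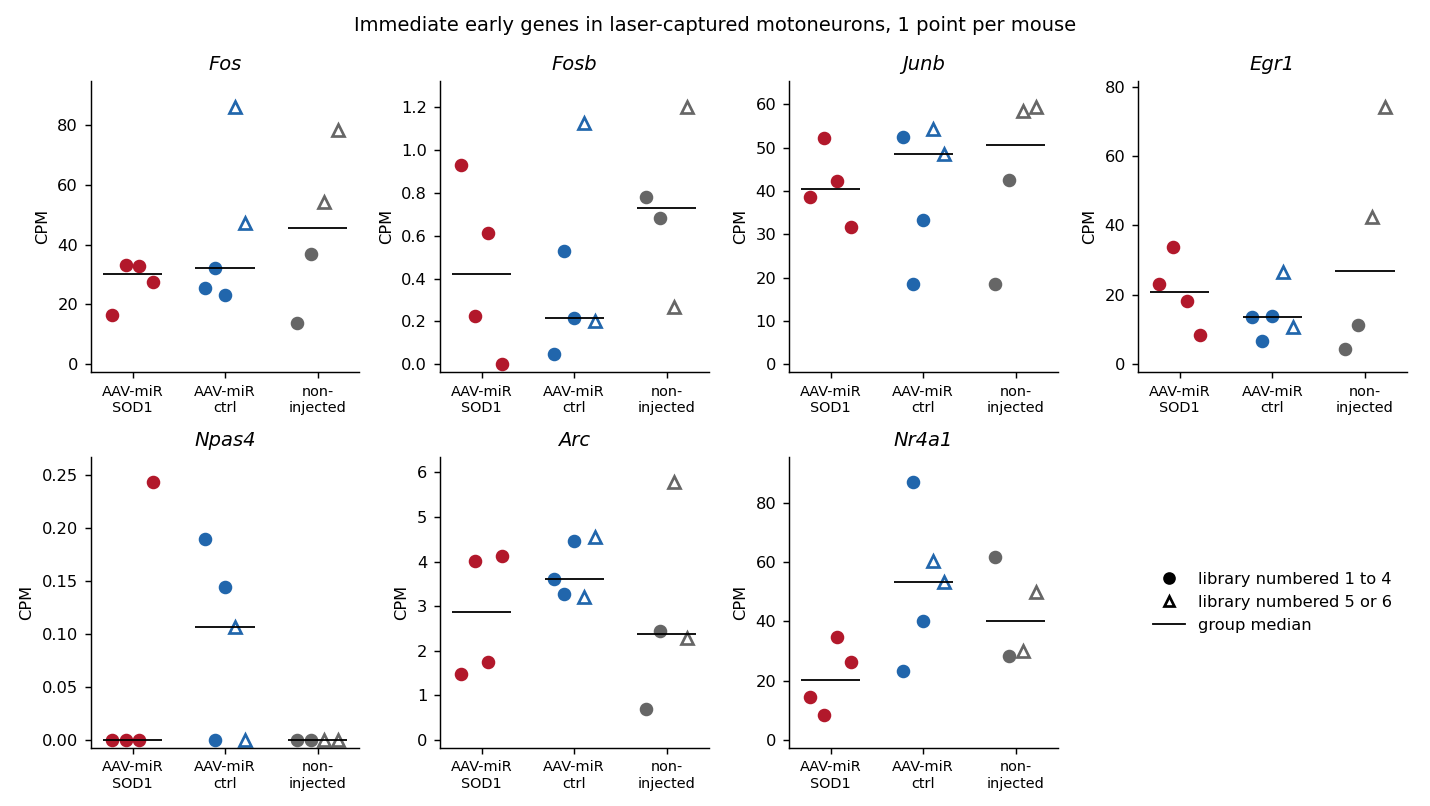
CPM of the 7 immediate early genes in each of the 13 libraries (1 point per mouse, linear vertical axis in CPM with its own scale for each gene), by group, with a bar at the group median. Open triangles mark the 4 control libraries numbered 5 or 6 and filled circles the 9 numbered 1 to 4, and the open triangles hold the 4 highest Fos values, from 47.0 to 86.0 CPM.

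The depth ran from 13897189 to 37414222 counts on genes per library, so that 3 counts, the limit that a count of 0 allows, stood for 0.08 to 0.216 CPM (counting error only). The 4 control libraries numbered 5 or 6 were the deepest, at 29682646 counts or more against 23101349 or fewer in the 9 numbered 1 to 4, and no AAV-miR SOD1 library bears those numbers. For replicate 3 of AAV-miR ctrl and replicate 3 of the non-injected mice, 2 libraries in all, the column header names another group than the title, and the titles were followed. All 8 motoneuron markers were present in every library, with a summed level of 549 to 1352 CPM in AAV-miR SOD1, 903 to 2535 in AAV-miR ctrl and 971 to 2609 in non-injected. Neutrophil markers summed to 25790 to 78430, 9627 to 68560 and 13070 to 20930 CPM in the same order, and erythroid markers to 13950 to 37320, 2576 to 21930 and 3983 to 13720 CPM. Transcripts typical of blood and marrow cells were thus present in every library, all captured from cord frozen inside its vertebrae. Mouse Sod1 ranged from 176 to 321 CPM in AAV-miR SOD1, and from 211 to 473 CPM in the controls, with overlap, but the microRNA acts on the human transgene in astrocytes, so this checks no label.

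Group differences were tested with edgeR's quasi-likelihood test on all 17403 genes with enough counts, with Benjamini-Hochberg adjustment over all of them. Of the 7 members 6 passed the filter on low counts, and Npas4 did not. No member, and no gene at all (0% of 17403), had an adjusted p under 0.05 in any of the 4 comparisons. At an unadjusted p under 0.05, 1 of the 6 tested members was lower in AAV-miR SOD1 than in AAV-miR ctrl, against 14.5% of all tested genes in either direction, 5.99% higher and 8.54% lower. In AAV-miR SOD1 against both control groups together 1 of 6 was lower, against 22.2% of all genes, 10.2% higher and 12.1% lower. Against non-injected mice alone 0 of 6 passed, against 20.9% of all genes, 9.36% higher and 11.5% lower. Between the control groups 0 of 6 passed, against 3.61%, 1.38% higher and 2.24% lower. Nr4a1 was the member in both cases. DESeq2 and limma-voom, run as alternatives, also gave no member an adjusted p under 0.05, while over all genes DESeq2 called 190, 1028, 3 and 1550 genes in the comparisons with AAV-miR ctrl, with non-injected, between the controls and with both control groups. Limma-voom called 1461 genes with both control groups and 0 in the other 3 comparisons. No member's groups were free of overlap in any comparison, read on TMM-scaled CPM, where 3.73%, 11.7%, 0.816% and 1.82% of all genes were. The 3 comparisons with AAV-miR SOD1 share its 4 libraries, and the one with both control groups is made from the same libraries as the other 2.

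**Figure D2:**
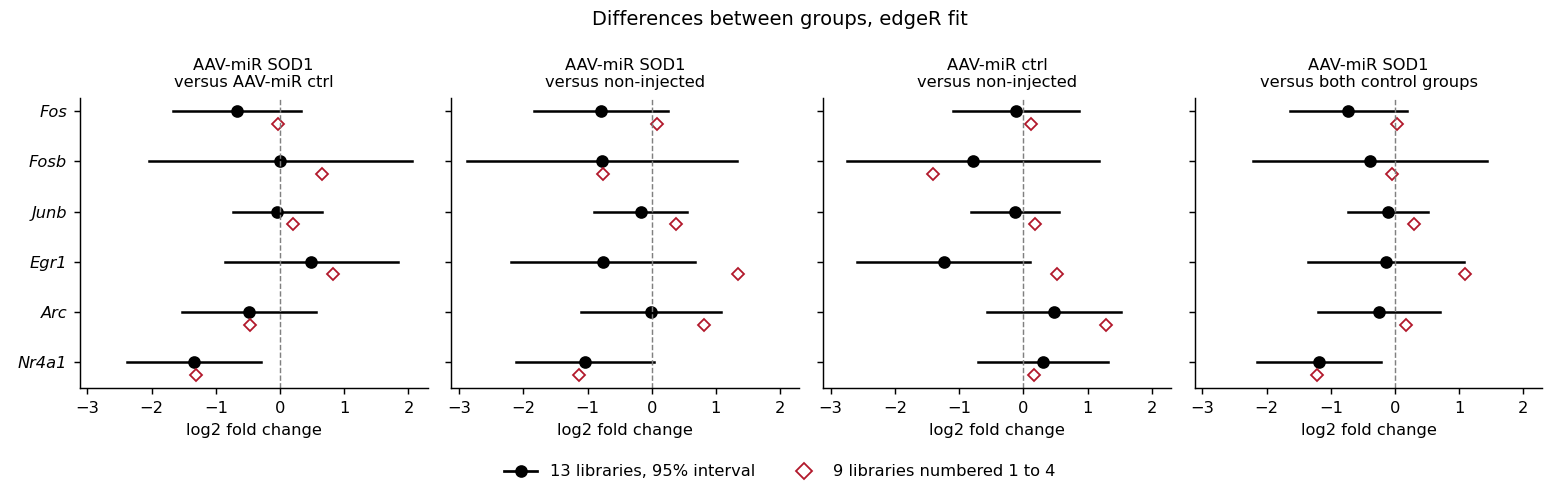
Log2 fold changes of the 6 tested members in the 4 comparisons (horizontal axis), from the edgeR fit of 13 libraries as filled points with 95% intervals, and from the 9 libraries numbered 1 to 4 as open diamonds without intervals. Nr4a1 lies at -1.34 against AAV-miR ctrl, with its interval below 0, and its diamond stays beside it, while the diamonds of Fos and Egr1 lie away from their points.

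Nr4a1, the nuclear receptor, was the member with the lowest values in AAV-miR SOD1 relative to the controls. Its level was 14.5, 8.40, 34.8 and 26.2 CPM in AAV-miR SOD1 replicates 1 to 4. It was 23.2, 86.9, 40.2, 60.4 and 53.4 CPM in AAV-miR ctrl replicates 1, 3, 4, 5 and 6. In non-injected replicates 2, 3, 5 and 6 it was 61.8, 28.4, 30.2 and 49.97 CPM. AAV-miR SOD1 replicates 1 and 2 lay below all 9 control libraries, and replicates 3 and 4 lay inside the control range. The log2 difference from AAV-miR ctrl was -1.34 ± 0.49 (SE, 95% interval -2.39 to -0.29), with an edgeR adjusted p of 0.277. From the non-injected mice it was -1.03 ± 0.50 (edgeR adjusted p = 0.258), and from both control groups -1.19 ± 0.45 (95% interval -2.15 to -0.22, adjusted p = 0.146). Between the control groups the difference was 0.31 ± 0.47, smaller than its error, and -0.56 when the 2 libraries with conflicting headers were exchanged. Within the 9 libraries numbered 1 to 4 the value against both control groups was -1.22, as large as with the deeper control libraries, at an unadjusted edgeR p of 0.0491 (adjusted p = 0.352).

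Fos, the first AP-1 partner, was high in the control libraries with the highest numbers. AAV-miR SOD1 replicates 1 to 4 had 16.6, 33.3, 32.7 and 27.6 CPM. AAV-miR ctrl replicates 1, 3 and 4 had 25.5, 32.1 and 23.2 CPM, and replicates 5 and 6 had 86.0 and 47.0. Non-injected replicates 2 and 3 had 13.8 and 36.9 CPM, and 54.3 and 78.4 CPM in replicates 5 and 6. The highest values were in the 4 libraries numbered 5 or 6, 47.0 to 86.0 CPM, with no overlap with the 9 others at 13.8 to 36.9 CPM. Over all libraries the log2 difference of Fos in AAV-miR SOD1 was -0.67 ± 0.47 from AAV-miR ctrl and -0.78 ± 0.49 from non-injected mice (edgeR adjusted p = 0.523 and 0.377). From both control groups it was -0.73 ± 0.43 (edgeR adjusted p = 0.341), and in the libraries numbered 1 to 4 the difference was 0.03. The libraries numbered 5 or 6 also had lower summed neutrophil markers, 9627 to 14530 against 16600 to 78430 CPM. Their erythroid markers, 2576 to 6084 against 3983 to 37320 CPM, had a lower median, 5083 against 13950, with overlap. Their motoneuron markers, 1712 to 2535 against 549 to 2609 CPM, had a higher median, 2145 against 971, with overlap. The part of these in the Fos values was not tested. What else the numbers stand for is not given in the sources used here.

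Fosb, the close relative of Fos, was near the limit of detection. It had 20, 4, 14 and 0 counts in AAV-miR SOD1, 1, 12, 3, 42 and 6 in AAV-miR ctrl, and 18, 12, 10 and 43 in non-injected mice. That is 0 to 1.20 CPM, with the highest values in replicate 5 of AAV-miR ctrl and replicate 6 of the non-injected mice, both deep libraries. The interval of its difference between AAV-miR SOD1 and both control groups ran from -2.21 to 1.44 on the log2 scale, which leaves the direction unresolved at this depth.

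Junb, the AP-1 partner that often restrains Jun, had the narrowest range of the members found in every library. It had 38.6, 52.3, 42.2 and 31.7 CPM in AAV-miR SOD1 and 52.5, 18.6, 33.2, 54.2 and 48.6 CPM in AAV-miR ctrl. In the non-injected mice it had 18.6, 42.5, 58.5 and 59.4 CPM. The groups overlapped over most of their range, and replicate 3 of AAV-miR ctrl and replicate 2 of the non-injected mice were the lowest libraries. The log2 difference of AAV-miR SOD1 was -0.04 ± 0.32 from AAV-miR ctrl, -0.17 ± 0.34 from non-injected mice and -0.11 ± 0.29 from both together (95% interval -0.73 to 0.52), and in the libraries numbered 1 to 4 the last was 0.30. Junb shares 173 of its exon bases, 7.5%, with Prdx2 on the opposite strand, and whether counting used strand is not given in the sources used here. Prdx2, an antioxidant enzyme abundant in red cells, stood at 567.9 to 1119 CPM in AAV-miR SOD1 and 477 to 721 CPM in the controls, so reads of the shared stretch cannot be told apart.

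Egr1, the zinc finger factor, had the widest range of the members with counts in every library. It stood at 23.2, 33.9, 18.3 and 8.58 CPM in AAV-miR SOD1 replicates 1 to 4. AAV-miR ctrl libraries had 13.5, 6.63, 13.8, 26.6 and 10.8 CPM, and non-injected libraries 4.33, 11.5, 42.3 and 74.2 CPM. The non-injected group alone held both the lowest library, replicate 2, and the 2 highest, replicates 5 and 6. Against AAV-miR ctrl the log2 difference of Egr1 in AAV-miR SOD1 was 0.48 ± 0.63 and against non-injected mice -0.76 ± 0.67, neither past the threshold (edgeR adjusted p = 0.759 and 0.549). In the libraries numbered 1 to 4 the difference from both control groups was 1.09, at an unadjusted edgeR p under 0.05 but not an adjusted one, where all libraries gave -0.14 ± 0.57.

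Arc, the synaptic member, was low in every library. It had 1.49, 4.003, 1.76 and 4.14 CPM in AAV-miR SOD1, 3.60, 3.27, 4.46, 3.21 and 4.55 CPM in AAV-miR ctrl, and 0.693, 2.45, 5.77 and 2.29 CPM in non-injected mice, from 16 to 216 counts per library. The AAV-miR ctrl libraries kept within a narrow band, inside the range of the non-injected ones. The log2 difference of AAV-miR SOD1 was -0.49 ± 0.49 from AAV-miR ctrl and -0.01 ± 0.51 from non-injected mice (95% interval -1.10 to 1.08), and several settings gave the second the opposite sign.

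Npas4, the calcium-responsive neuronal factor, was close to absent. It had 14 counts in all 13 libraries, 4 of them in AAV-miR SOD1 replicate 4, and 4, 2 and 4 in AAV-miR ctrl replicates 1, 4 and 5. The other 9 libraries, all 4 non-injected ones among them, had 0 counts, which at their depth allows up to 3 counts each. No fold is given at such counts. In pooled cells, fewer cells that transcribe a gene and less RNA per cell cannot be told apart, here or for any other member.

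Whether the members vary together between mice of a group was examined with log2 CPM minus the group mean over the 13 libraries, in 15 pairs of the 6 tested members. In 10 pairs the correlation was positive. No such count was made over pairs of other genes, so neither this nor the values below can be called particular to the members. The permutations shuffled all 13 libraries without allowing for the removed group means, so their p-values are likely too small. Junb and Egr1 went together most closely (Pearson's r = 0.82, permutation p = 0.00028, adjusted over the 15 pairs 0.0042, Spearman's rho = 0.78, permutation p = 0.0026, adjusted 0.039). Leaving out the 2 libraries at the largest distance from the median of Junb, without regard to Egr1, gave r = 0.73. The 9 libraries numbered 1 to 4 alone gave 0.76 (permutation p = 0.0188). Non-injected replicate 2 was lowest and non-injected replicate 6 highest for both genes relative to their group. Without non-injected replicate 2 r was 0.67, with an adjusted permutation p of 0.13.

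The Fos pairs rested on fewer libraries. Their adjusted permutation p lay just under 0.05, so they may not pass a permutation that allows for the removed group means. Fos and Egr1 had r = 0.70 (permutation p = 0.00781, adjusted 0.0458, rho = 0.56, permutation p = 0.0517), and Fos and Junb r = 0.69 (permutation p = 0.00916, adjusted 0.0458, rho = 0.71, permutation p = 0.00804). With the 2 libraries most distant from the median of Fos left out, without regard to the other gene, these were 0.47 and 0.45. Within the libraries numbered 1 to 4 they were 0.14 and 0.29, so the relation of Fos with these 2 genes no longer held there. Without non-injected replicate 2 they were 0.48 and 0.44. Fos and Arc had r = 0.50 over all libraries (permutation p = 0.0832) and 0.68 in those numbered 1 to 4 (permutation p = 0.047). In the libraries numbered 1 to 4, 0 pairs had an adjusted permutation p under 0.05. Fosb and Arc went in opposite directions (r = -0.58, permutation p = 0.0367, adjusted 0.138, rho = -0.70, permutation p = 0.00969, adjusted 0.0484), with Fosb at 43 counts or fewer. Nr4a1 had positive values with Fos (r = 0.17) and Fosb (r = 0.38) and a negative one with Arc (r = -0.31), with permutation p of 0.581, 0.196 and 0.306. Its r was -0.41 with Junb and -0.29 with Egr1 (permutation p = 0.159 and 0.336), and in the libraries numbered 1 to 4 it was -0.68 and -0.72 (permutation p = 0.0469 and 0.0342).

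**Figure D3:**
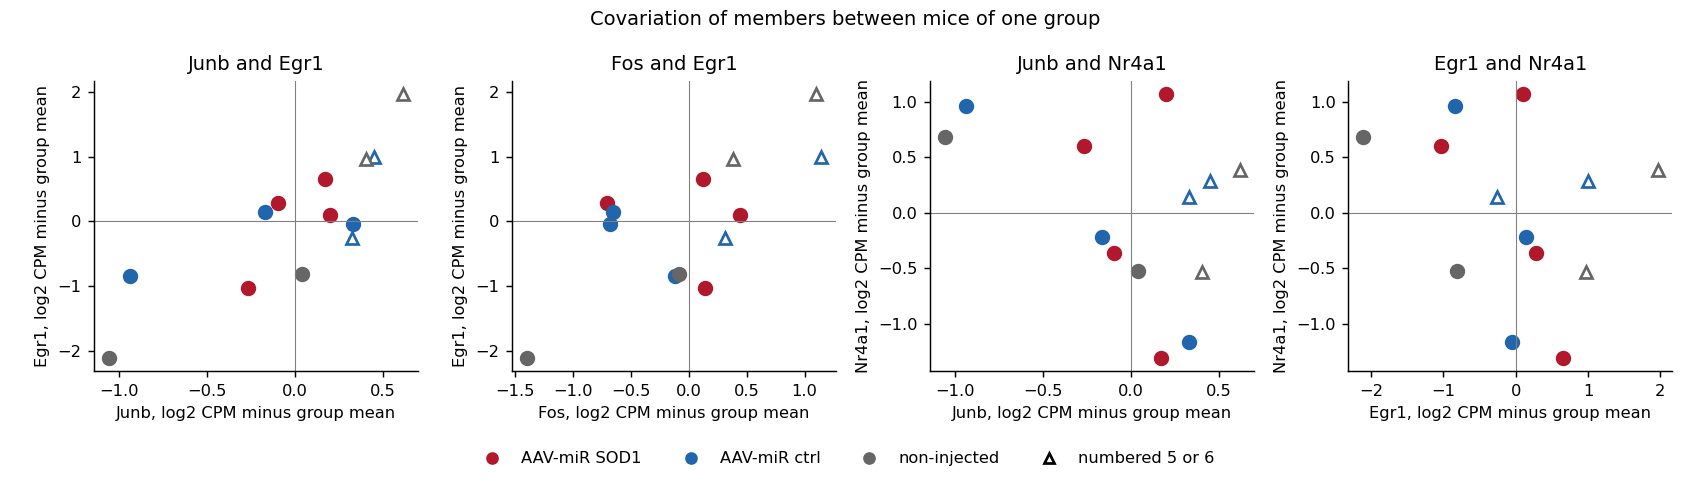
Deviations of single libraries from their group mean (log2 CPM, both axes) for 4 pairs of members, with 1 point per mouse coloured by group and open triangles for libraries numbered 5 or 6. Junb and Egr1 rise together (r = 0.82), the Fos and Egr1 panel has its 3 triangles of highest Egr1 at the upper right, and Nr4a1 has r = -0.41 with Junb and -0.29 with Egr1.

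The genes most like each member had the highest Pearson's r with it among all tested genes, with the members left out. The r was taken over the 13 libraries with group means removed. Being picked as the highest of so many, these values are descriptions. Fos was most like Hars2 (r = 0.94), Mvd (0.92) and Sumf2 (0.92), and Fosb was most like Adgrg2 (0.86), Nudt12 (0.85) and Gm4787 (0.82). Junb was most like Mblac1 (0.98), Inpp5e (0.96) and Calhm6 (0.95), and Egr1 was most like Atoh8 (0.96), Polg2 (0.94) and Lipt2 (0.94). Arc was most like Cd2bp2 (0.95), Fstl4 (0.92) and Gm45881 (0.88). Nr4a1 was most like Spag7 (0.98), Cnbp (0.97) and Gm5276 (0.96). No gene from the other lists of immediate early, delayed or upstream genes was among these. Those lists are a small part of all tested genes, so their absence carries little information.

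The closest relatives of the members, 9 further genes of the Fos, Jun, Egr and Nr4a families, behaved no more uniformly. Of these 7 were tested. At an unadjusted p under 0.05, 1 (14.3%) was lower and 0 higher in AAV-miR SOD1 than in both control groups. That is near the share over all tested genes, of which 12.1% were lower and 10.2% higher. The median log2 difference of the relatives was -0.38 against -0.06 over all tested genes. The 1 lower relative was Jun, the classical partner of Fos. Jun had 34.4, 46.6, 24.2 and 19.4 CPM in AAV-miR SOD1, 28.8, 25.5, 44.1, 91.6 and 91.5 CPM in AAV-miR ctrl, and 38.2, 82.3, 97.7 and 109 CPM in non-injected mice. As for Fos, the libraries numbered 5 or 6 were the highest, at 91.5 to 109 CPM. Without them Jun differed by -0.59 from both control groups. Over all libraries Jun differed by -1.20 ± 0.39 from both control groups (edgeR adjusted p = 0.110) and by -1.48 ± 0.43 from non-injected mice (adjusted p = 0.140), where the groups did not overlap after TMM scaling and overlapped in unscaled CPM in replicate 2 of each. With DESeq2 the adjusted p of Jun in that comparison with both control groups was 0.0309, in a range of 0.0309 to 0.558 over all settings tried.

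Fosl1, a relative of Fos, was at 0.130 to 3.02 CPM, with a difference of -0.55 ± 0.68 from both control groups. Fosl2 differed by 0.35 ± 0.27 and Jund, at 7.21 to 35.4 CPM, by 0.23 ± 0.41. Jund was the 1 relative with an unadjusted p under 0.05 between the control groups, lower in AAV-miR ctrl than in non-injected mice by a log2 difference of -1.28 ± 0.46 (edgeR adjusted p = 1.00). Of all tested genes 1.38% were higher and 2.24% lower in that comparison. Egr2, the Egr1 homologue that also marks myelinating Schwann cells, differed by -0.38 ± 0.44 from both control groups. Egr3 and Egr4, which activity also induces, had too few counts to test, 69 and 3 in all. Of the Nr4a1 homologues, Nr4a2 differed by -0.48 ± 0.59 and Nr4a3 by 0.22 ± 0.63, and their difference from Nr4a1 was not tested.

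Of the 22 other immediate early genes, 3 were higher and 5 lower in AAV-miR SOD1 than in both control groups at an unadjusted p under 0.05, with a median log2 difference of 0.13, against 10.2% higher, 12.1% lower and a median of -0.06 over all tested genes. These 3 and 5 genes are 13.6% and 22.7% of the list. Btg2, a brake on cell division, was higher by 0.93 ± 0.26 (edgeR adjusted p = 0.0970). It ran from 83.9 to 142 CPM in AAV-miR SOD1 and from 25.1 to 81.7 CPM in the 9 controls, without overlap. Ppp1r15a, the phosphatase subunit that ends the integrated stress response, was higher by 1.12 ± 0.31 (edgeR adjusted p = 0.0972), at 61.7 to 170 CPM against 25.4 to 92.6. Gadd45g and Ier3 were lower, by log2 differences of -1.04 ± 0.39 and -0.69 ± 0.24 (edgeR adjusted p = 0.144 and 0.123). In the libraries numbered 1 to 4, 6 of the 22 were higher and 0 lower, against 8.01% and 6.15% of the 18274 genes tested there. Against AAV-miR ctrl the counts were 4 higher and 3 lower (all genes 5.99% and 8.54%), against non-injected mice 3 and 3 (9.36% and 11.5%), and between the controls 0 and 0 (1.38% and 2.24%).

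The 21 genes listed as delayed are activity-regulated effectors such as growth factors and vesicle proteins. The name is that of the list, and the time of their induction was not examined here. Of 20 tested in AAV-miR SOD1 against both control groups 0 were higher and 6 lower at an unadjusted p under 0.05, with a median of -0.83, where 10.2% of all tested genes were higher and 12.1% lower. Bdnf, the neurotrophin, had 2.60, 5.07, 3.56 and 5.11 CPM in AAV-miR SOD1, 8.05, 7.38, 10.1, 21.5 and 20.7 CPM in AAV-miR ctrl, and 3.98, 14.4, 12.2 and 14.4 CPM in non-injected mice. Only non-injected replicate 2 among the 9 controls reached into the AAV-miR SOD1 range. Bdnf differed by -1.64 ± 0.41 (edgeR adjusted p = 0.0960), Rgs4, which shortens G protein signals, by -1.19 ± 0.29 (adjusted p = 0.0960), Scg2, a granule protein, by -0.94 ± 0.27 (adjusted p = 0.0993) and Syt4, a vesicle protein, by -0.83 ± 0.30 (adjusted p = 0.135). DESeq2 and limma-voom each gave 3 of the list an adjusted p under 0.05, all lower, where edgeR gave 0. Over all genes DESeq2 called 824 of 24202 lower in that comparison and limma-voom 527 of 17403.

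Motoneuron markers were lower in the same libraries, 8 of 8 at an unadjusted p under 0.05 against both control groups with a median of -1.06, and erythroid markers were higher, 5 of 5 with a median of 1.62. Neutrophil markers were higher in 5 of 6 with a median of 1.101, and microglial markers in 3 of 7 with a median of 0.52. Astrocyte markers were lower in 1 of 6 and oligodendrocyte markers in 0 of 6, and none of either was higher. Over all tested genes 10.2% were higher and 12.1% lower. The part of these markers in the values of the delayed genes and of the members was not tested. In the libraries numbered 1 to 4, 4 of 20 delayed genes were lower and 1 higher (all genes 6.15% and 8.01%), and 5 of 8 motoneuron markers were lower. Against AAV-miR ctrl 7 delayed genes were lower and 0 higher (all genes 8.54% and 5.99%), against non-injected mice 4 and 1 (11.5% and 9.36%), and between the controls 0 and 1 (2.24% and 1.38%).

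Upstream of the members, 27 calcium, MAP kinase and transcription factor genes were tested, and 3 were higher and 3 lower in AAV-miR SOD1 than in both control groups at an unadjusted p under 0.05, with a median of -0.07. These counts are each 11.1% of the list, near the 10.2% higher and 12.1% lower over all tested genes. By the naming rule, Camk2b, a calcium-dependent kinase subunit, was lower by a log2 difference of -0.60 ± 0.21 (edgeR adjusted p = 0.129) and Crem, whose products include repressors at cAMP response elements, by -0.49 ± 0.19 (adjusted p = 0.159). Atf1, an activator at the same elements, was higher by 0.63 ± 0.23 (adjusted p = 0.140), and Nfatc3, a calcineurin target, by 0.64 ± 0.26 (adjusted p = 0.168). Against AAV-miR ctrl the counts were 3 higher and 3 lower, against non-injected mice 1 and 2, and between the controls 0 and 2 (all genes 5.99% and 8.54%, 9.36% and 11.5%, 1.38% and 2.24%).

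**Figure D4:**
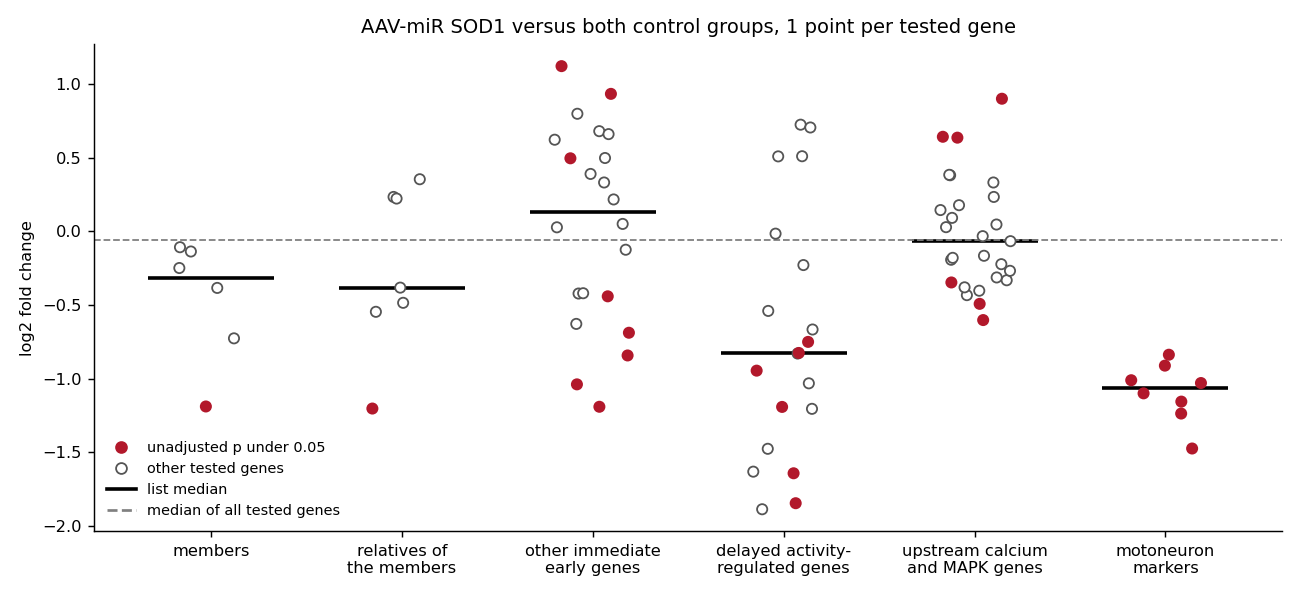
Log2 fold changes of AAV-miR SOD1 against both control groups (vertical axis) for each tested gene of 6 lists, filled where the unadjusted edgeR p is under 0.05, with a bar at the list median and a dashed line at the median of all 17403 tested genes (-0.06). The delayed genes (median -0.83) and the motoneuron markers (median -1.06) lie lower than the 6 members, whose median is -0.32.

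Other cell types that the captured tissue could hold were followed through their markers. Astrocyte markers summed to 276 to 444 CPM in AAV-miR SOD1, 478 to 833 in AAV-miR ctrl and 400.5 to 598 in non-injected mice. In this sum the first group did not overlap with AAV-miR ctrl, where 3.73% of all tested genes did not overlap. Aldoc had the most counts of the 6 markers, 91248 over the libraries, followed by Gfap with 28760. Against AAV-miR ctrl 1 of the 6 was lower at an unadjusted edgeR p under 0.05, and 8.54% of all tested genes were. Oligodendrocyte markers summed to 1148 to 3214, 1158 to 4705 and 1718 to 3013 CPM, microglial markers to 589 to 1034, 351 to 1156 and 225 to 641 CPM, and endothelial and pericyte markers to 204 to 317, 196.5 to 283 and 127 to 295 CPM. Inhibitory interneuron markers were low, at 7.47 to 24.9, 13.1 to 26.3 and 11.8 to 20.6 CPM. Gad2 and Pax2 each had counts in only 11 of the 13 libraries. The share of each member's reads that came from such cells was not tested.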

How the data were processed

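RNA of motoneurons captured by laser was amplified with a low-input cDNA kit and made into libraries by tagmentation, per the labels' protocols, from 1 mouse per library. The deposited files hold counts per Ensembl gene, not normalized by the authors. The submitters' processing notes name cutadapt 1.8, STAR 2.5.2b, HTSeq 0.6.1 and GRCm38, without roles, and strand and annotation are not given in the sources used here. The 5 summary rows of each table, 47.0% to 61.6% of its total, were left out. GENCODE M21 named 48349 of 48709 gene rows and gave exon lengths.

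Counts were analysed in R 4.3.3 with edgeR 4.0.16, with filterByExpr (minimum count 10, minimum total 15), TMM scaling factors from 0.918 to 1.176, and 1 quasi-likelihood fit over the 3 groups with 10 residual degrees of freedom and a common biological coefficient of variation of 0.47. P-values were adjusted by Benjamini-Hochberg over 17403 genes at a threshold of 0.05. Errors of fold changes are SE, and intervals are 95%. CPM were not TMM-scaled where printed. Correlations used log2 CPM with a prior count of 2 and 100000 two-sided permutations, which ran across groups and did not allow for the removed group means. On simulated counts for 16945 genes with 200 changed, the fit with both control groups recovered 79.2% of 4-fold and 88.3% of 16-fold changes, with 15 false among 182 calls. The other fits recovered 70.8% and 86.2% (against AAV-miR ctrl, 7 false of 163 calls) and 67% and 85.1% (against non-injected, 9 false of 160 calls). Each gene was simulated independently, without variation shared between genes of a library, so these rates may not hold for the data. No change under 4-fold was simulated.

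Groups came from the sample titles. The members and gene lists were chosen with earlier results of these data known. Genes named in the text are the 7 members, their 9 relatives, the 4 genes of each other pathway list with the smallest unadjusted p against both control groups, and the 3 genes most correlated with each tested member. Prdx2, Sod1 and the list markers were named outside that rule. The result of 1 marker list is not reported here. Alternatives were RLE and upper quartile scaling, no filter and a filter of CPM above 1 in 4 libraries, DESeq2 1.42.0, limma-voom (limma 3.58.1) with sample weights, a fit restricted to the groups compared, a block for the replicate number, each library left out, the libraries numbered 1 to 4 alone, and an exchange of the 2 libraries whose headers name another group.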

Additional observations from a re-analysis of the deposited data

Results flagged for a closer look

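Within each group of 4 or 5 libraries, the gap of the highest and of the lowest library to its nearest neighbour was divided by the group's range for each named gene that was tested (Dixon's test). Of 75 gene and group combinations 2 had a library standing far apart, where chance flags about 1 in 20. Nr4a2, the relative of Nr4a1, stood at 2.77 log2 CPM in AAV-miR ctrl replicate 5, where the other 4 libraries of that group lay between 0.73 and 1.21. That library was also the highest of its group for Fos, Fosb, Junb and Egr1. Btg2 stood at 4.65 log2 CPM in non-injected replicate 3, below the other 3 libraries of its group at 6.00 to 6.11. No value of the 6 tested members stood apart in this way. The genes with too few counts to test were checked on CPM in the 6 groups where they had any count, and 3 libraries stood apart, all of AAV-miR SOD1 and on 12 counts or fewer. They were Npas4 in replicate 4 (0.243 CPM, the others at 0), Egr3 in replicate 2 (0.676 CPM, the others at 0.0608 to 0.139) and Egr4 in replicate 3 (0.132 CPM, the others at 0). For Npas4 and Egr4 the flag carries no information, since a library that alone has any count in its group is always flagged.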

How the results depend on the processing

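Nr4a1 kept its negative sign in the 3 comparisons with AAV-miR SOD1 under every setting tried, with log2 values of -1.70 to -0.94 against AAV-miR ctrl, -1.50 to -0.70 against non-injected and -1.54 to -0.90 against both control groups, and adjusted p of 0.0823 to 0.894, 0.161 to 0.689 and 0.0579 to 0.49. The number of genes called, 0 with edgeR, was 190, 1028, 3 and 1550 with DESeq2 (with AAV-miR ctrl, with non-injected mice, between the controls and with both of them as references), and against both control groups 1461 with limma-voom, 1 with no filter, and 0 to 1694 with 1 library left out (1694 without AAV-miR ctrl replicate 1, 121 without AAV-miR SOD1 replicate 3, 1 without AAV-miR SOD1 replicate 4). The 3 correlated pairs became 1 without centring on group means, 0 in libraries numbered 1 to 4 and 0 to 4 with 1 library left out (0 without non-injected replicate 2). The cause was not tested.

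Some log2 differences changed sign. For Arc against non-injected they were 0.041 with RLE, 0.087 with upper quartile scaling, 0.034 with DESeq2 and 0.072 with the groups compared alone, a fit that gives no separate value against both control groups. With limma-voom, Fosb was -0.71 and Junb 0.10 against AAV-miR ctrl, and Jund -0.083 against both. In libraries numbered 1 to 4, Junb was 0.21 against AAV-miR ctrl. Fos was 0.085, Junb 0.38, Egr1 1.35 and Arc 0.81 against non-injected. Fos was 0.11, Junb 0.17 and Egr1 0.52 between controls, and Fos was 0.028, Junb 0.30, Egr1 1.09, Arc 0.17 and Nr4a2 0.49 against both. With the header exchange, Fosb was -0.055 against AAV-miR ctrl, Junb 0.016 against non-injected and 0.21 between controls, and Nr4a1 -0.56 between controls.

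Leaving out 1 library in turn gave ranges that crossed 0 for Arc (-0.31 to 0.59 against non-injected, -0.55 to 0.062 against both), Egr1 (-1.05 to 0.10 and -0.35 to 0.29), Junb (-0.34 to 0.034 against non-injected, -0.15 to 0.066 against AAV-miR ctrl, -0.36 to 0.08 between controls), Fos between controls (-0.51 to 0.33), Fosb (-0.59 to 0.75 against AAV-miR ctrl, -0.98 to 0.008 against both), Jund (-0.45 to 0.54 against both) and Nr4a3 (-0.10 to 0.72 against both).

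Correlations of same-numbered libraries of different groups ran from -0.19 to 0.24, with 3 of 8 pairs over 0.1. Differently numbered pairs ran from -0.385 to 0.342. With so few pairs and no test, these values cannot decide whether the numbers pair the libraries. With the replicate block edgeR called 0 genes in each comparison, and 1927 genes had an unadjusted p under 0.05 against both control groups in place of 3870. Under the block Fos was 0.073 and Junb 0.38 against AAV-miR ctrl. Fos was 0.22, Junb 0.26, Egr1 0.59 and Arc 0.36 against non-injected, and Fos was 0.15 between controls. Against both, Fos was 0.15, Junb 0.32, Egr1 0.90, Arc 0.042, Fosl1 0.09 and Nr4a2 0.57. With 0 to 43 counts per library, depth limits Fosb and Npas4.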
